A study of Mus musculus with 12 samples.

Results

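The tumour necrosis factor (TNF) superfamily comprises the TNF-like ligands and their receptors. Here it was taken as the protein-coding mouse genes whose symbol starts with Tnfsf or Tnfrsf, together with Tnf, Lta, Ltb, Ltbr, Cd40, Cd40lg, Cd27, Cd70, Fas and Fasl. The rule found 42 of the 21631 protein-coding genes on chromosomes 1 to 19 and X, of which 24 were receptors and 18 were ligands. Chromatin accessibility had been profiled by ATAC-seq, in which a transposase inserts adapters into open DNA, in mature medullary thymic epithelial cells (mTEChi) sorted from dissociated thymi of C57BL/6 mice aged 4 to 7 weeks. The 12 libraries formed 3 sets, each with 2 mutant and 2 wild-type (Aire +/+) libraries: Aire -/- mice, Aire +/C313Y heterozygotes and Aire +/C442G heterozygotes, each against the wild types whose titles share its form. Aire is the regulator through which mTEChi transcribe antigens of other tissues, and the heterozygotes carry 1 mutant allele beside 1 wild-type allele. The labels do not say how the null allele was made, nor that each library came from a separate animal. All p-values therefore measure only the spread between these libraries, which may be technical.

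Ligands of this superfamily act as trimers that cluster their receptors. The receptors recruit TRAF adaptors, which lead to canonical and non-canonical NF-kB signalling, or, where they carry a death domain, adaptors that lead to caspase activation. In the thymus, RANK (Tnfrsf11a), CD40 and the lymphotoxin beta receptor (Ltbr) on medullary epithelium receive ligands made largely by thymocytes and other haematopoietic cells, and these signals are known for driving the growth and maturation of mTECs.

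The data were lists of peaks, the stretches of the genome called accessible in a library. A gene was called open in a library when a peak lay within 1 kb of either end of the gene, and the accessible length was the number of base pairs (bp) under peaks in those windows. The lists held 34047 to 122326 peaks, and 51.6% to 66.2% of all genes were open in a library. The wild types of the Aire -/- set had the shortest lists, of 34715 and 34047 peaks, against 85826 and 94976 in the Aire -/- libraries, and read depth was unknown for all of them. No read counts were used, so a missing peak means one not called at that depth. Of 12 markers of thymic epithelium, 7 to 12 were open per library, and Aire, Epcam, Krt8, Cldn3, H2-Aa and Spib were open in all 12. Cd80 was open in 1 library, and Krt5 was open in none of the 4 libraries of the Aire -/- set. Of the T cell markers, Cd4 and Lat were open in 9 libraries each and Cd3d in 7, whereas Cd8a, Lck, Zap70 and Rag1 were open in none. The B cell marker Cd79b was open in 7 libraries and Ms4a1 in none. Of the markers of dendritic cells and macrophages, Flt3 and Xcr1 were open in all 12. Clec9a was open in 9, Itgam in 7, Adgre1 in 4, Itgax and Csf1r in 1 each, and Siglech in none. The peak near Aire itself, present in every library, checks no label, since the deleted part is not given.

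The RefSeq promoter windows of 4 members (300 bases, 5′ to 3′ in the direction of the gene) are printed with CpG dinucleotides in capitals. They are from GRCm38.p6, which shares coordinates with mm10. No window was available for Cd40, and accessible lengths were counted at both gene ends, not over these windows alone. Tnfrsf11a and Ltbr are receptors of mTEC growth with many CpGs, Tnfrsf14 is a CpG-poor receptor that was open in every library all the same, and Tnfsf11, the gene of RANK ligand, had no peak over its window in any library. The windows lie at chr1:105780473-105780772 (+), chr6:125313836-125314135 (-), chr4:154928028-154928327 (-) and chr14:78307994-78308293 (-).
Tnfrsf11a: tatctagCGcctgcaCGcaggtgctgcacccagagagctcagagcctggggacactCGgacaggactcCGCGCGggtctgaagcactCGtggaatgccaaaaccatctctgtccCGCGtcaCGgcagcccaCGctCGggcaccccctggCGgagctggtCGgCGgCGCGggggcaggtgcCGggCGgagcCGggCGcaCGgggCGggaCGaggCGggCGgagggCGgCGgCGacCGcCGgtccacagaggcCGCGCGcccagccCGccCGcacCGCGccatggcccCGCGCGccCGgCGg
Ltbr: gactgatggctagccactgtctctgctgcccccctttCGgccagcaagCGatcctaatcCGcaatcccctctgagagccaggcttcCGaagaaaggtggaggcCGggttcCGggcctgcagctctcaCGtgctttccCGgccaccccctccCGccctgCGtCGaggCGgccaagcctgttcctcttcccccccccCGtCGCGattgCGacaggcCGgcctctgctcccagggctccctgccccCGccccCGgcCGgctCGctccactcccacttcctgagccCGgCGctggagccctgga
Tnfrsf14: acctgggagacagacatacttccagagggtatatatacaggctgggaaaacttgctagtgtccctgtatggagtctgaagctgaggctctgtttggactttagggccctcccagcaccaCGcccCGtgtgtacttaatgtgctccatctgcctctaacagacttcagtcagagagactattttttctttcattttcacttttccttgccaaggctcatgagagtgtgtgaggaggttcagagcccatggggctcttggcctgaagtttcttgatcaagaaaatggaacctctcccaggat
Tnfsf11: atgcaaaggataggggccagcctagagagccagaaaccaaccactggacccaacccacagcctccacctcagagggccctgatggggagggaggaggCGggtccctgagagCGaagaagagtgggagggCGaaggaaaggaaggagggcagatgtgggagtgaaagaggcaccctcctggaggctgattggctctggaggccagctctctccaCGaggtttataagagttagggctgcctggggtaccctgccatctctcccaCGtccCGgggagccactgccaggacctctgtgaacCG

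The Tnfrsf11a window held 43 CpGs, which was 0.98 of the number expected from its base composition. Ltbr held 23 CpGs (0.67 of expected), Tnfsf11 held 7 (0.25) and Tnfrsf14 held 2 (0.11). A promoter window was in the table for 32 of the 42 members, some with more than 1 start, which gave 36 windows. The median ratio of observed to expected CpG was 0.38 in the members' windows and 0.57 in all 21045 promoters. Members' windows with a peak in all 12 libraries had a median ratio of 0.52 and those with a peak in none had 0.31. Across all promoters the same medians were 0.82 and 0.20, so the CpG content of open and closed windows lay closer together in this family than genome-wide, as a description of 12 and 9 windows.

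**Figure D1:**
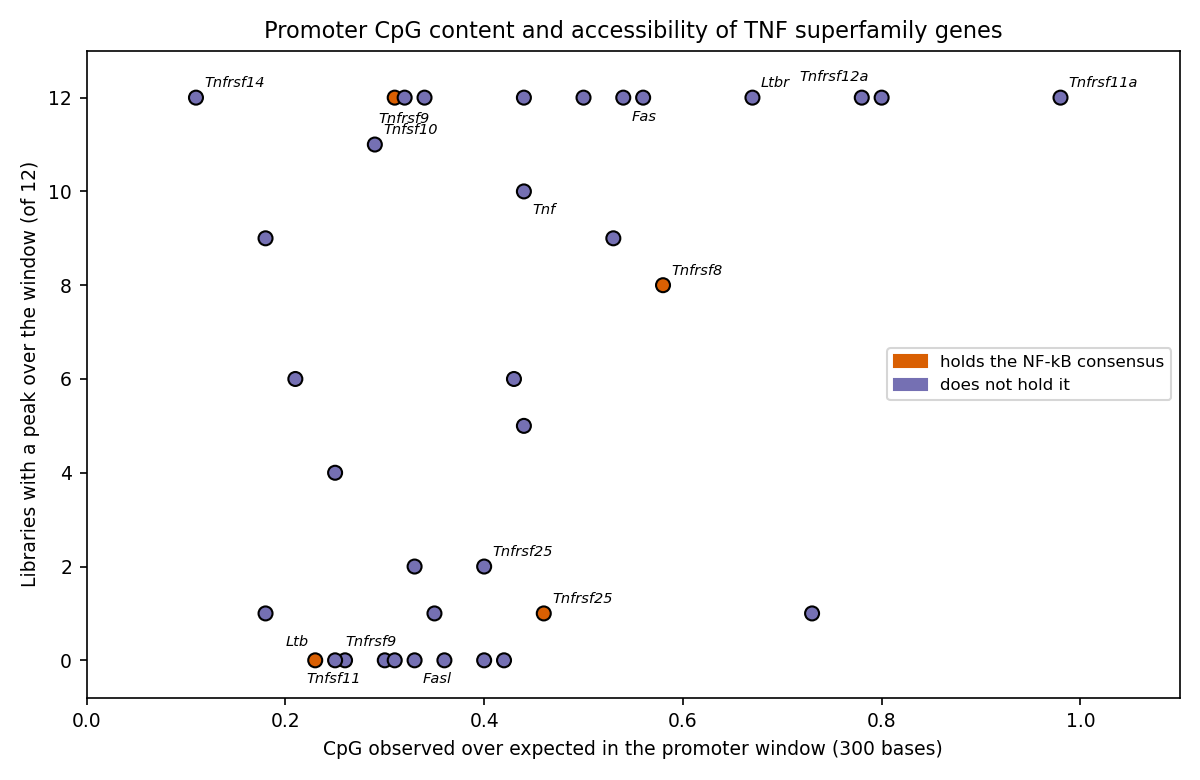
Each point is 1 promoter window of 300 bases of a TNF superfamily gene, placed by its ratio of observed to expected CpG (x) and by how many of the 12 libraries had a peak over it (y); orange windows hold the NF-kB consensus. Tnfrsf11a (0.98) and Tnfrsf14 (0.11) lie at opposite ends of the CpG scale, and both were open in all 12 libraries.

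Several receptors and ligands of this family are themselves known targets of NF-kB, so the windows that hold its consensus are shown with the matches in capitals, together with that of Tnf, whose TATAAA box is in capitals. The consensus was searched on both strands, matches may overlap, and it was found in 4 of the 36 members' windows (11.1%) against 9.34% of all promoters. The windows are Tnfrsf8 at chr4:145315115-145315414 (-), the internal start of Tnfrsf9 at chr4:150927749-150928048 (+), the more downstream start of Tnfrsf25 at chr4:152116093-152116392 (+), Ltb at chr17:35194257-35194556 (+) and Tnf at chr17:35201958-35202257 (-).
Tnfrsf8: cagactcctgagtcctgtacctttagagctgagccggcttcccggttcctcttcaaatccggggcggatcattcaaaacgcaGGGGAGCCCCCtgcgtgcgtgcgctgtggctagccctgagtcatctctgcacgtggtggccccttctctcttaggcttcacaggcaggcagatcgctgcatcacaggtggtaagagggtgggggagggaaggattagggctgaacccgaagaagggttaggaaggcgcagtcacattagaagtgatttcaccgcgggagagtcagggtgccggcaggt
Tnfrsf9: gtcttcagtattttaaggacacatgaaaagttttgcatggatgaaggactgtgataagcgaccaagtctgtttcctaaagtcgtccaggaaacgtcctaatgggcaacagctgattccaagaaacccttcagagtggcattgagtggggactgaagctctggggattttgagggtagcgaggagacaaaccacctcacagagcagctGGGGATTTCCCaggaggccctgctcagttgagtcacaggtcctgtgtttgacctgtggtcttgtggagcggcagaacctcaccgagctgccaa
Tnfrsf25: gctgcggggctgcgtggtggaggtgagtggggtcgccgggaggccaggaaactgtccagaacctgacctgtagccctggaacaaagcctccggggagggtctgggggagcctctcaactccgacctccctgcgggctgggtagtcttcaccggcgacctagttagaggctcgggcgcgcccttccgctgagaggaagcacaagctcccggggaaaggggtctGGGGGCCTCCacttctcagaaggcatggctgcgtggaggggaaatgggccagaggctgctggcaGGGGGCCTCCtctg
Ltb: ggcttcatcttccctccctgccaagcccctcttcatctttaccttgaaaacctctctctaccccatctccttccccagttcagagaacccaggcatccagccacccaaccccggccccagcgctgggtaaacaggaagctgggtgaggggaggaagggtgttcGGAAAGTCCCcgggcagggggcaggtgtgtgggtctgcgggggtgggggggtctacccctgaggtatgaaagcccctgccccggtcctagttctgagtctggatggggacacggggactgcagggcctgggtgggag
Tnf: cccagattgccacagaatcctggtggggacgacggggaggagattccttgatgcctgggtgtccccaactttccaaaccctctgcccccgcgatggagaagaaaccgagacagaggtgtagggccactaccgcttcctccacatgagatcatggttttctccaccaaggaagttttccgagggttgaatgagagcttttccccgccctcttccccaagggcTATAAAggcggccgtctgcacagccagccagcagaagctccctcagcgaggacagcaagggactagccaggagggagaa

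Relative to the start of transcription, the first matching base lay at -168 in Tnfrsf8, -43 in Tnfrsf9, -28 in Tnfrsf25 and -87 in Ltb. The TATAAA of Tnf began at -29. A peak covered part of the window in 12 libraries for Tnfrsf9, in 10 for Tnf, in 8 for Tnfrsf8, in 1 for Tnfrsf25 and in none for Ltb. Holding the letters therefore went with every degree of accessibility among these windows. Other short motifs occurred as often in the family as elsewhere or more: GGGCGG in 47.2% of members' windows against 46.7% of all, TATAAA in 16.7% against 12.7%, and TGANTCA in 19.4% (7 windows, 2 of them overlapping at Tnfsf13b) against 7.04%. All were searched on both strands.

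Of the 42 members, 20 were open in all 12 libraries (47.6%), close to the 46.6% of all genes. Only 3 members were open in no library (7.14%, against 25.8% of all genes), and 19 were open in some libraries but not others (45.2% against 27.6%). Receptors and ligands divided differently: 14 of 24 receptors were open in all libraries and 0 in none, whereas 6 of 18 ligands were open in all and 3 in none. The closed genes were Fasl, the death-inducing Fas ligand, Tnfsf8, the CD30 ligand, and Cd40lg, the CD40 ligand of activated T cells. Peaks inside the gene, away from its ends, were present at Tnfsf8 in 8 libraries and at Cd40lg in 4, while Fasl had none anywhere in the gene.

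**Figure D2:**
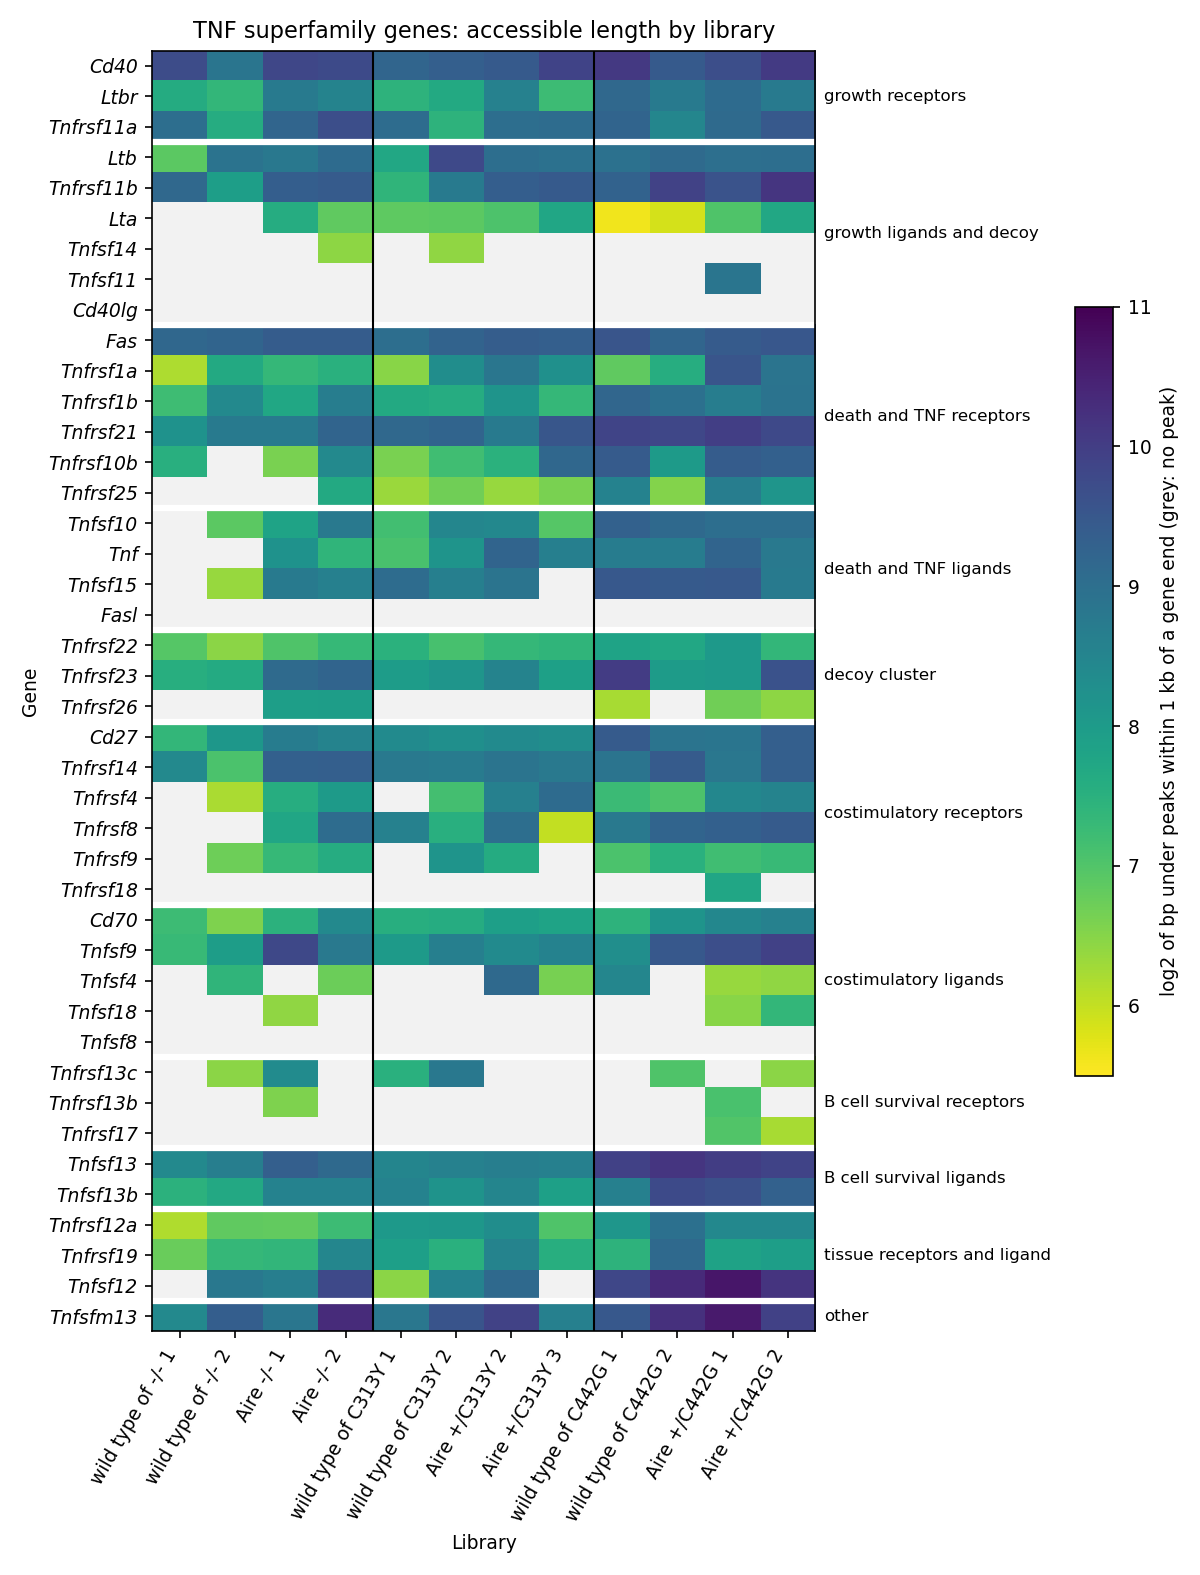
Rows are the 42 TNF superfamily genes grouped by role, columns are the 12 libraries in their 3 sets (wild types first), and colour is the log2 of the bp under peaks within 1 kb of a gene end, with grey for no peak. The 3 receptors of mTEC growth are coloured in every column, and Fasl, Tnfsf8 and Cd40lg are grey throughout.

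All 3 receptors of mTEC growth were open in every library of every genotype. For Tnfrsf11a (RANK, chr1:105780673-105849444), the receptor of the Tnfsf11 ligand, the accessible length was 593 and 825 bp in Aire -/- and 514 and 192 bp in its wild types. It was 519 and 530 bp in the C313Y heterozygotes against 534 and 173 bp in theirs, and 552 and 707 bp in the C442G heterozygotes against 597 and 356 bp. Only in the Aire -/- set did both mutants lie above both wild types, and each set had 1 wild type well below the other. In 5 libraries a peak near the other end of the gene added to the length. In Aire -/- library 2 that peak was 293 bp wide and, by its p-value, ranked above 15.4% of the peaks of its list. The start peaks alone were 593 and 532 bp wide in Aire -/- and 514 and 192 bp in its wild types.

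The log2 difference (mutant minus wild type, on the scale of log2(bp + 100), with limma and Benjamini-Hochberg adjustment over 13370 genes) for Tnfrsf11a was 0.92 ± 0.46 (SE, 2 libraries a group; adjusted p = 0.219) in Aire -/-. It was 0.59 ± 0.46 (adjusted p = 0.894) in the C313Y set and 0.36 ± 0.46 (adjusted p = 1.0) in the C442G set. None passed the threshold of 0.05. The Aire -/- value was 0.38 without wild-type library 2 of that set, 1.46 without wild-type library 1, and 0.51 with each library centred on its median. Without the shorter wild type, library 2 of the C313Y set, the difference there was -0.02.

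The peak over the start of Tnfrsf11a differed in rank between libraries. Its fold enrichment, the authors' value for each peak, was 6.38 and 7.80 in Aire -/- and 5.34 and 5.40 in the wild types, and by its p-value it ranked above 88.8%, 94.0%, 76.6% and 74.3% of the peaks of the same list. In the C442G set the fold was 6.38 and 5.53 in the heterozygotes and 4.24 and 7.19 in the wild types. These folds were read within each list only, and the lists of the C313Y set give none. By p-value the peak ranked above 90.6% and 85.3% of peaks in the C442G heterozygotes and 71.9% and 93.2% in their wild types. By width it ranked above 92.1% and 93.4% in the C313Y heterozygotes and 95.8% and 56.1% in their wild types.

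Cd40 (chr2:165055614-165071654), the receptor of the CD40 ligand, had the longest accessible stretches of the 3. It measured 916 and 867 bp in Aire -/- and 845 and 463 bp in its wild types. Lengths in the C313Y set were 695 and 946 bp against 589 and 643 bp, and in the C442G set 816 and 1070 bp against 1088 and 695 bp. Both mutants lay above both wild types in the Aire -/- and C313Y sets and the C442G groups overlapped.

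In the same limma fit the log2 difference of Cd40 was 0.44 ± 0.28 (SE; adjusted p = 0.323) in Aire -/-, 0.35 ± 0.28 (adjusted p = 0.903) in the C313Y set and 0.09 ± 0.28 (adjusted p = 1.0) in the C442G set. The Aire -/- value was 0.07 without wild-type library 2 of that set, 0.82 without wild-type library 1, 0.03 with centring and 0.18 in lists of equal length. The C442G value changed sign under 4 alternatives, without passing the threshold: -0.09 without C442G heterozygote library 2, -0.20 without wild-type library 2 of that set, -0.12 with a stricter peak threshold and -0.01 in narrower windows. All of this accessible length lay at the low-coordinate end of the gene, where the strongest peak of each list with folds had a fold of 4.68 to 7.31, and no library had a peak within 1 kb of the other end.

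Ltbr (chr6:125306571-125313885, minus strand), the receptor of lymphotoxin and of Tnfsf14, had a single accessible region, at its start. Its length was 433 and 374 bp in Aire -/- and 197 and 164 bp in its wild types. It was 382 and 150 bp in the C313Y heterozygotes against 173 and 202 bp, and 537 and 423 bp in the C442G heterozygotes against 563 and 423 bp. The Aire -/- libraries were apart from their wild types, and the groups of the other sets overlapped.

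The log2 difference of Ltbr was 0.84 ± 0.30 (SE) in Aire -/-, with a limma adjusted p of 0.112. It passed the threshold when C313Y heterozygote library 2 (adjusted p = 0.0495) or library 3 (adjusted p = 0.0471) was left out of the shared estimate of spread, with the difference itself at 0.84 both times, and the difference was 0.43 with centring. It was 0.27 ± 0.30 (adjusted p = 0.938) in the C313Y set, or -0.20 without C313Y heterozygote library 2, and -0.03 ± 0.30 (adjusted p = 1.0) in the C442G set. That last value was 0.11 without C442G heterozygote library 2 and 0.14 without wild-type library 1. The start peak of Ltbr also lies within 1 kb of an end of Scnn1a, so it cannot be assigned to Ltbr alone. For none of the 3 receptors did the difference in 1 set pass a test against that in another.

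**Figure D3:**
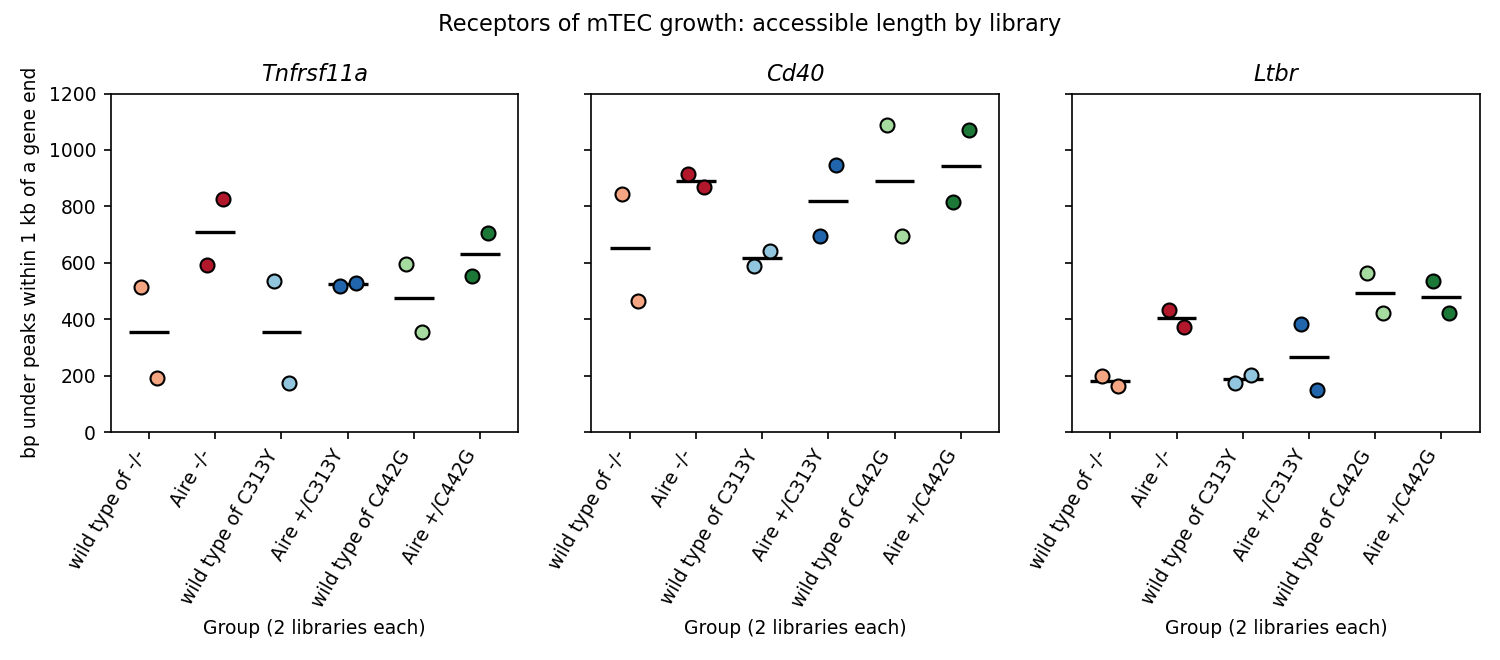
Points are single libraries, horizontal bars are means of the 2 libraries of a group, and the y axis is the bp under peaks within 1 kb of a gene end. For Ltbr the 2 Aire -/- libraries (433 and 374 bp) sit above the 2 wild types (197 and 164 bp), whereas single wild-type libraries of Tnfrsf11a range from 173 to 597 bp.

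Beyond the gene ends, the receptors differed in how many accessible regions they held. Peaks of all libraries were merged over each gene and 20 kb on either side. Inside Tnfrsf11a, the longest of the 3 genes, there were 22 regions, of which 0 were present in all 12 libraries and 7 in a single one. Cd40 held 4 such regions and Ltbr held 0. Outside the genes, regions open in all 12 libraries stood at chr1:105850747-105851157 and chr1:105866769-105867213 beyond Tnfrsf11a, at chr2:165074178-165075228 beyond Cd40, and at chr6:125321107-125321563 and chr6:125331012-125331292 on the start side of Ltbr. A further region inside Tnfrsf11a, chr1:105784191-105785212, was present in 11 libraries and missing only from 1 wild type of the Aire -/- set.

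Some regions had a peak in both Aire -/- libraries and in neither of their wild types. They were 3 at Tnfrsf11a, with chr1:105765589-105765908 and chr1:105775161-105775616 before the gene and chr1:105804321-105804758 inside it, and 3 at Cd40, with chr2:165042807-165043583 on the low-coordinate side and chr2:165064444-165064719 and chr2:165070462-165070620 inside it. Ltbr had 0. All of these regions were also open in wild types of the other sets: the first of Cd40 in all 4 of them, and that inside Tnfrsf11a in both wild types of the C442G set and neither of the C313Y set. The region inside Tnfrsf11a was likewise open in both C313Y heterozygotes and neither of their wild types. In the C442G set, chr1:105790257-105790445 inside Tnfrsf11a and chr2:165042265-165042436 near Cd40 had a peak in both heterozygotes and neither wild type, and chr1:105839847-105840054 inside Tnfrsf11a had the reverse. No share over regions of the whole genome was computed for these counts. The Aire -/- set is also the one whose wild types had the short lists, and the part of list length in these differences was not tested.

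**Figure D4:**
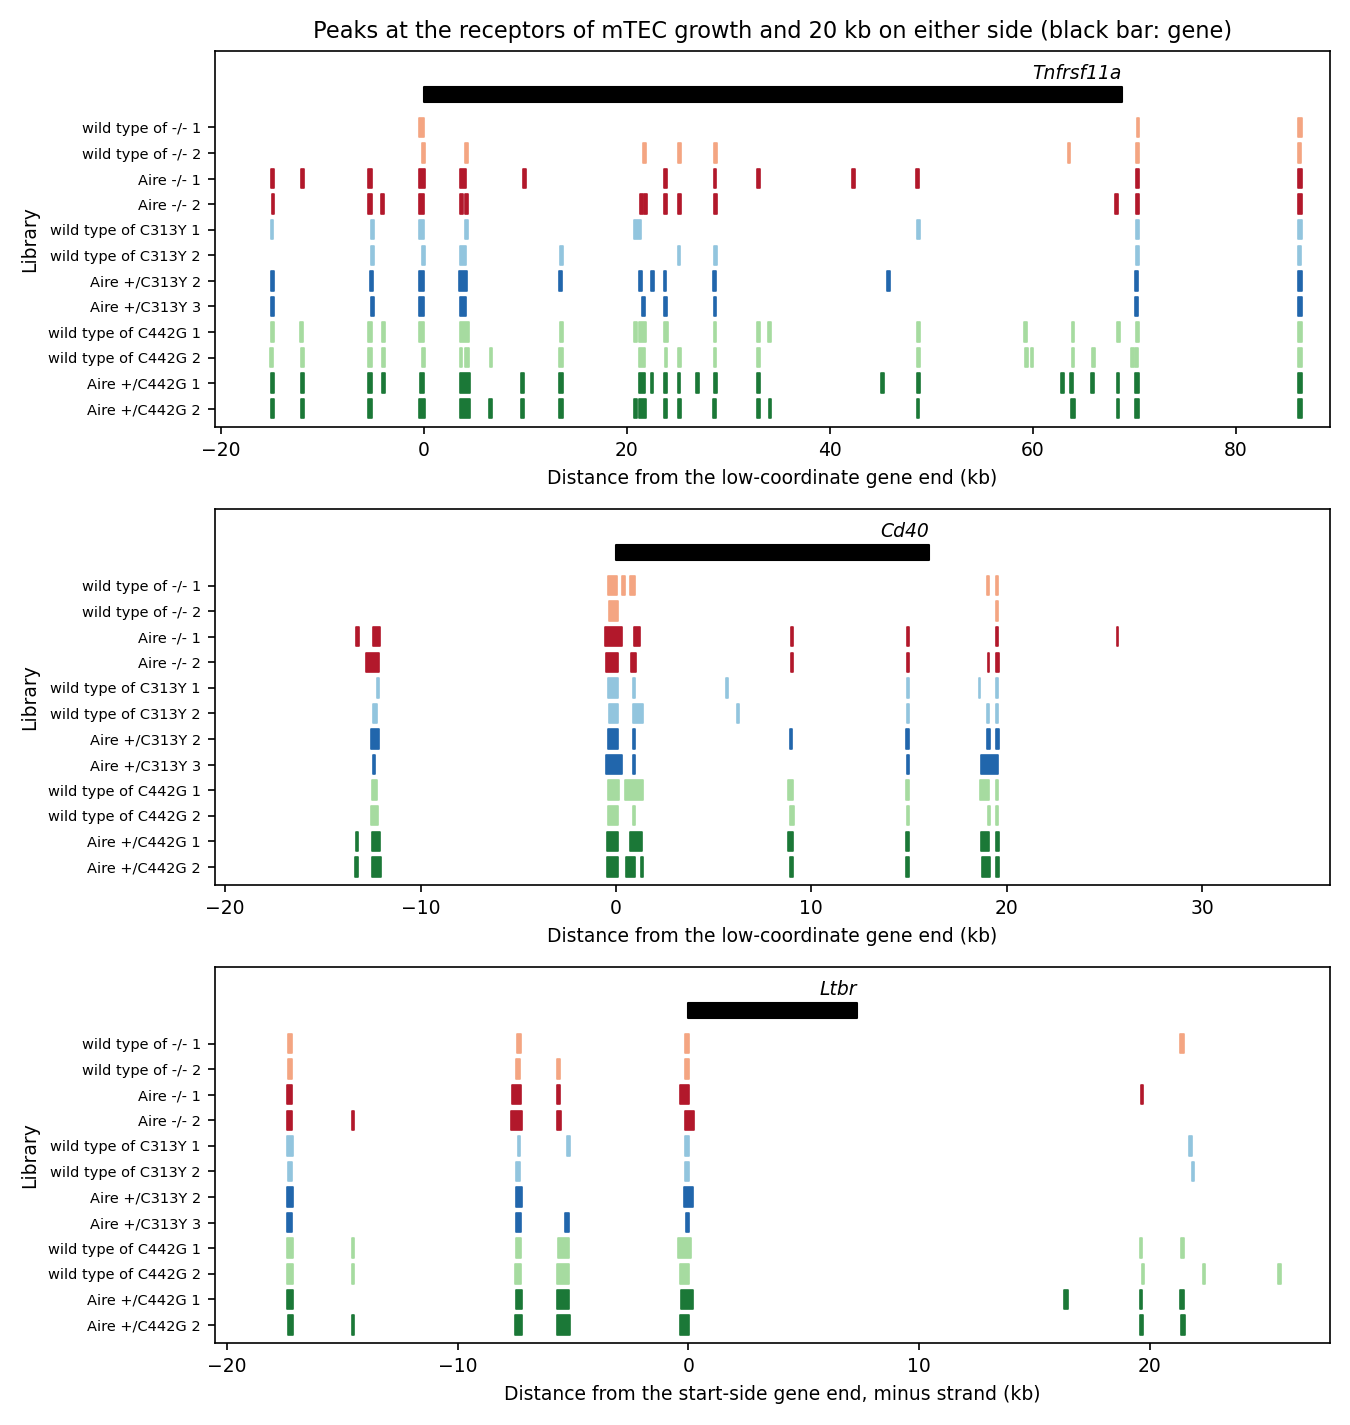
Each bar is a peak of 1 library, drawn by its distance in kb from the low-coordinate end of Tnfrsf11a and Cd40 and from the start-side end of Ltbr, with the gene in black. The start regions line up in all 12 libraries, Tnfrsf11a has scattered peaks along its length, and the inside of Ltbr is empty.

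The ligands of these receptors were mostly less accessible. Tnfsf11 (RANK ligand) was open only in C442G heterozygote library 1, with 464 bp in 2 peaks of fold 3.58 and 2.96, among the weaker of that list. Tnfsf14 (LIGHT), a ligand of Ltbr and Tnfrsf14, was open in 2 libraries, Aire -/- library 2 with 86 bp and wild-type library 2 of the C313Y set with 85 bp. Ltb (lymphotoxin beta) was open in all 12, at 119 to 883 bp, although no peak reached its promoter window: within 1 kb of its start there was a peak in 10 libraries, and near its other end in 12. Tnfrsf11b (osteoprotegerin), the secreted decoy of RANK ligand, was open in all 12 libraries at 168 to 1134 bp. Tnfsf11 and the position of the Ltb peaks were singled out after their values were seen.

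By genotype, 33 members were open in each Aire -/- library and 21 and 27 in the wild types of that set (33.0 ± 0 against 24.0 ± 4.24, mean ± SD, n = 2). Over all genes, 61.3% and 63.0% were open in the Aire -/- libraries against 51.6% and 51.6%. For the C313Y set the counts were 31 and 28 in heterozygotes against 29 and 32, and in the C442G set 37 and 35 against 32 and 31. In bulk libraries a change in the make-up of the cells and a change within each cell cannot be told apart. When every list of a set was shortened to its strongest peaks (in the C313Y set, its widest), at the length of the shortest, the Aire -/- counts were 22 and 24 against 21 and 27, the C313Y counts 29 and 28 against 25 and 32, and the C442G counts 33 and 33 against 32 and 31. The separation of Aire -/- libraries from their wild types was not present in lists of equal length, and the C442G heterozygotes stayed above their wild types by 1 or 2 genes. Over all genes at equal length, the mutants lay below their wild types in the Aire -/- and C442G sets, at 49.4% and 49.5% against 51.3% and 51.6%, and at 62.8% and 62.3% against 63.5% and 64.4%.

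**Figure D5:**
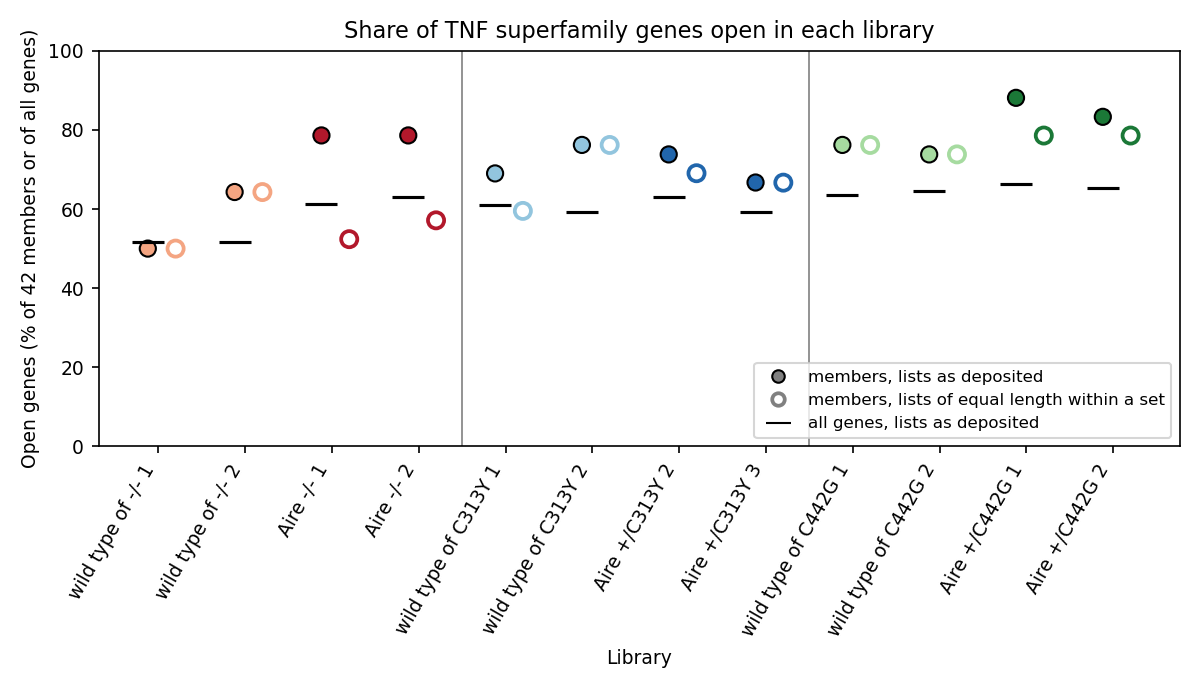
For each library, the filled circle is the percent of the 42 members that were open, the open circle the same with all lists of a set cut to equal length, and the black dash the percent of all genes that were open. Aire -/- libraries stand at 78.6% against 50.0% and 64.3% in their wild types as deposited, and between them at equal length.

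A member was called gained when it was open in both mutants and neither wild type of a set, and lost in the reverse case. In Aire -/- there were 4 gained members: Tnf, the founding cytokine of the family, its neighbour Lta (lymphotoxin alpha), Tnfrsf8 (CD30, a receptor of activated lymphocytes) and Tnfrsf26 of the decoy receptor cluster. The background was 5.21% of all genes gained. Among genes closed in both wild types, and so able to be gained, 4 of 14 members (28.6%) and 11.8% of all genes were gained. None of the 42 was lost, against 0.0277% of all genes, or 0.0582% of those open in both wild types. Without wild-type library 2 of the set, 9 members were gained, with Tnfsf10, Tnfsf15, Tnfrsf9, Tnfrsf4 and Tnfsf12 added. With 2 libraries against 2 within a set, an exact permutation test cannot go below p = 0.333, so these calls are descriptions.

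Tnf (chr17:35199367-35202007, minus strand) had 294 and 169 bp under peaks in Aire -/- and was listed at 0 in both wild types of that set. The C313Y set had 600 and 394 bp in heterozygotes and 136 and 283 bp in wild types, and in the C442G set 599 and 438 bp against 414 and 414 bp. The wild types of the Aire -/- set were thus the only 2 libraries without a peak at Tnf, and every mutant lay above every wild type of its own set.

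In limma, Tnf rose in Aire -/- by 1.70 ± 0.31 (SE, log2 scale with 100 bp added; adjusted p = 0.0193). Both that value and the call depend on the added bp, since the wild types were at 0. With 300 bp added in place of 100 bp, neither Tnf nor Lta passed, and Tnfrsf14 was the only member called. The C313Y difference was 0.97 ± 0.31 (adjusted p = 0.427) and the C442G difference was 0.25 ± 0.31 (adjusted p = 1.0). The Aire -/- peak covers the TATAAA box printed above, with a fold of 4.82 and 7.04. It remained in both Aire -/- libraries, at 294 and 169 bp, when lists were of equal length, and both wild types were again at 0. The call did not hold without Aire -/- library 1 (adjusted p = 0.0763), without Aire -/- library 2 (0.0551) or without wild-type library 1 (0.0520).

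Lta (chr17:35203165-35205578) had 192 and 114 bp in Aire -/-, 0 in both wild types of that set, and at least 49 bp in each of the other 8 libraries. It rose by 1.32 ± 0.30 in Aire -/- (limma, adjusted p = 0.0335). The Tnf start peak also reaches within 1 kb of Lta in Aire -/- library 1, both C313Y heterozygotes and every library of the C442G set. In both wild types of the C442G set it was the only peak at Lta, and gave their 49 and 58 bp. The pair therefore does not count as 2 separate observations. Around starts of transcription alone, Lta was also gained in the C442G heterozygotes. In lists of equal length Lta had 192 and 0 bp in Aire -/-, and the call of a gain was lost. It was also lost from the limma test without either Aire -/- library (adjusted p = 0.115 and 0.0793), without either wild type of that set (0.0849 and 0.0755) or without wild-type library 2 of the C442G set (0.0501).

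Tnfrsf8 had 215 and 534 bp in Aire -/-, 0 in both wild types of that set, and 64 to 688 bp in the other 8 libraries. Its limma difference of 2.16 ± 0.59 did not pass (adjusted p = 0.0579), and the gain held in lists of equal length, at 215 and 64 bp. In Aire -/- library 2 those 64 bp were the edge of a peak inside the gene (chr4:145314126-145314227) that reached within 1 kb of the start. The peak of that library nearer the start (chr4:145315217-145315326) was no longer in the list. Tnfrsf26 had 242 and 244 bp in Aire -/-, 103 and 86 bp in the C442G heterozygotes, 74 bp in 1 of their wild types and 0 in the other 7 libraries. It was the only gained member closed in most other wild types, and its peaks were weak, above 58.0% and 30.0% of the peaks of the Aire -/- lists and absent from those lists at equal length. It was open in fewer than 6 libraries and so was not in the length test.

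Beside these gains, T cell markers moved the same way: 3 of 10 were open in each Aire -/- library and 0 in each wild type of that set, with 2 to 4 open in every other library. Cd4 and Lat were open in both Aire -/- libraries and neither wild type, as were 11.8% of all genes closed in both wild types. Cd8a, Lck, Zap70 and Rag1 were closed throughout. B cell markers were open at 0 and 2 of 5 in Aire -/- against 0 and 0, fibroblast markers at 3 and 3 of 6 against 2 and 0, and thymic epithelial markers at 8 and 10 of 12 against 7 and 7. Markers of dendritic cells and macrophages were open at 4 and 3 of 8 against 2 and 2, and those of endothelium at 0 of 5 in all 4 libraries. Both Aire -/- libraries exceeded both wild types for T cells, fibroblasts, dendritic cells and epithelium, but not for B cells or endothelium. Over all genes, 61.3% and 63.0% were open in the Aire -/- libraries against 51.6% and 51.6%. The marker counts are to be read against that shift. The part of these cells in the gains, and that of list length in the marker counts, was not tested.

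Across the 32 members with a peak in at least 6 libraries, 31 had a difference above 0 in Aire -/-, with a median of 0.73. Over all 13370 genes tested the median was 0.45 and 89.2% were above 0, so differences in this set are to be read against that shift. In 22 of the 32 (68.8%) both mutants lay above both wild types, against 59.8% of all genes, and in 0 the reverse, against 1.56%. In limma 4 members rose, Tnf, Lta, Tnfsf13 and Tnfrsf14, and 0 fell, against 8.71% of all genes higher and 0.0299% lower, and 12 members were higher and 0 lower at an unadjusted p under 0.05 (all genes, 3856 and 31). With each library centred on its own median, the members' median was 0.31 against 0.03 for all genes, and no member passed. In a fit to the 4 libraries of the set alone, 0 of all genes passed. No member passed without Aire -/- library 1 or without library 2, 1 passed without wild-type library 1 (Tnfrsf14) and 2 without wild-type library 2 (Tnfsf13 and Tnf).

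Tnfrsf14 (HVEM), the receptor shared by LIGHT and lymphotoxin alpha, had 636 and 650 bp in Aire -/- and 338 and 133 bp in its wild types. It rose by 1.22 ± 0.30 (limma, adjusted p = 0.0425). The direction turned when lists were cut to equal length: both Aire -/- libraries were then at 0, the wild types kept 338 and 133 bp, and the difference was -1.68 (adjusted p = 0.0290), so that Tnfrsf14 became the single member lost. The peaks behind these values were of middling or low rank, above 53.7% and 56.6% of the Aire -/- peaks and 10.2% and 39.1% of the wild-type peaks. The call in the deposited lists was also lost without any 1 of 11 of the 12 libraries, the exception being wild-type library 1 of the Aire -/- set.

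Tnfsf13 (APRIL), a B cell and plasma cell survival ligand, had 642 and 560 bp in Aire -/- and 341 and 403 bp in its wild types. It rose by 0.57 ± 0.14 (limma, adjusted p = 0.0418). In lists of equal length it had 350 and 478 bp against 341 and 403 bp, and the difference was 0.11 (adjusted p = 0.740). Leaving out either Aire -/- library (adjusted p = 0.139 and 0.102) or wild-type library 1 of that set (0.119) also removed the call, as did leaving out any C313Y heterozygote library or any library of the C442G set (0.0548 to 0.0661). Its peaks are shared with the neighbouring Tnfsf12 (TWEAK), with Tnfsfm13, which spans both genes, and with Senp3, which lies outside the family.

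In the C313Y set 1 member was gained and 1 was lost, beside 0.846% and 0.370% of all genes. Of the genes that could be gained or lost, these were 1 of 10 members against 2.36% of genes, and 1 of 29 against 0.661%. Tnfsf4 (OX40 ligand) had 558 and 99 bp in the heterozygotes and 0 in both wild types, but it was also open in 1 wild type of each other set, at 169 and 358 bp. Tnfrsf13c (the BAFF receptor) had 0 in both heterozygotes and 312 ± 184 bp in the wild types (mean ± SD, n = 2; the lower had 182 bp), and it was open in 1 library of each group of the other sets, at 327, 88, 88 and 130 bp. Without C313Y heterozygote library 2 there were 3 lost members, with Tnfsf15 and Tnfsf12 added. Without wild-type library 1 there were 2, with Tnfsf14 added, and without wild-type library 2 there were 2 gained members, with Tnfrsf4 added.

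Tnfrsf4 (OX40), the receptor of the Tnfsf4 ligand, had the smallest p of the members in the C313Y set. Its accessible length was 390 and 537 bp in heterozygotes and 0 and 142 bp in wild types, a difference of 1.84 ± 0.44 (limma, adjusted p = 0.277). Peaks counted at Tnfrsf4 can also lie within 1 kb of an end of Sdf4, so the length cannot be assigned to Tnfrsf4 alone. No member and 0 of the 13370 genes passed, higher or lower, while 3 members were higher and 1 lower at an unadjusted p under 0.05 (all genes, 862 and 150). The members' median was 0.10 against 0.11 over all genes, and 10 of 32 members (31.2%) had both heterozygotes above both wild types, against 29.5% of all genes, and 1 the reverse, against 6.54%.

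In the C442G set 2 members were gained, against 0.897% of all genes, and 0 were lost, against 0.291%. Of those that could be, 2 of 9 members were gained against 2.70% of genes, and 0 of 30 lost against 0.476%. Tnfsf18 (GITR ligand) had 89 and 163 bp in the heterozygotes and Tnfrsf17 (BCMA, a plasma cell survival receptor) had 127 and 75 bp, and both were at 0 in all 6 wild types. Tnfsf18 was also open in Aire -/- library 1, at 85 bp. Their peaks had folds of 3.06 to 4.67 and lay above 2.20% to 45.5% of the peaks of their lists. Neither gain was present at equal list length. Tnfrsf17 had a peak somewhere in the gene in 11 libraries and Tnfsf18 in 8. Without C442G heterozygote library 2 there were 5 gained members, with Tnfrsf18, Tnfrsf13b and Tnfsf11 added. Without wild-type library 1 there were 4, with Tnfsf4 and Tnfrsf26 added.

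No member passed limma in the C442G set, nor did any of the 13370 genes, with 2 members higher and 0 lower at an unadjusted p under 0.05 (all genes, 387 and 196). The lowest adjusted p among members was that of Tnfrsf1a (TNF receptor 1), with 753 and 473 bp in heterozygotes and 114 and 191 bp in wild types, a difference of 1.49 ± 0.44 (adjusted p = 0.861). Peaks counted at Tnfrsf1a can likewise lie within 1 kb of an end of Plekhg6. The members' median was 0.05 against 0.03 over all genes. In 7 of 32 members (21.9%) both heterozygotes lay above both wild types, against 22.2% of all genes, and in 2 the reverse, against 12.8%.

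Over the 3 sets together, an exact two-sided permutation test within sets (smallest possible p of 0.00926) was made of the number of open libraries for the 5980 genes open in 1 to 11 libraries. After adjustment 0 genes passed (0% of those tested), and 17 (0.284%) had an unadjusted p under 0.05, none of them among the 19 members tested. The smallest p of a member was 0.167, at Tnfsf18 and Tnfrsf26. Differences between the sets in accessible length, tested as interaction terms in limma, passed for no member, and for 62 genes between the Aire -/- and C313Y sets and 44 between the Aire -/- and C442G sets.

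Of the 6 death and TNF receptors, 4 were open in all 12 libraries. Fas, the receptor of the Fas ligand, had 513 to 745 bp with little spread, and Tnfrsf21 (death receptor 6) had 294 to 1006 bp, both in all 12 libraries. Tnfrsf1a and Tnfrsf1b (TNF receptors 1 and 2) were open in all 12 as well, Tnfrsf10b (the TRAIL receptor) in 11, and Tnfrsf25 (death receptor 3) in 9. Of their ligands, Tnf was open in 10 libraries and Fasl in 0, fewer than their receptors. Tnfsf10 (TRAIL) was open in 11, as was its receptor, and Tnfsf15 (TL1A) in 10, against 9 for Tnfrsf25. The decoy receptors Tnfrsf22 and Tnfrsf23 were open in all 12.

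Of the costimulatory receptors, Cd27 and Tnfrsf14 were open in all 12 libraries, Tnfrsf4 and Tnfrsf8 in 10, Tnfrsf9 in 9 and Tnfrsf18 (GITR) in 1. The Cd27 peak lay at the far end of the gene, shared with Tapbpl, and no library had a peak within 1 kb of the Cd27 start. Tnfrsf9 (4-1BB), singled out after its values were seen, was the reverse case. Its annotated first start had no peak in any library, while a second RefSeq start 7844 bp inside the gene had 1 in all 12, over the window with the NF-kB consensus printed above. That peak was 95 to 220 bp wide. Its fold was 9.96 and 9.44 in Aire -/- against 3.71 and 4.35 in their wild types, and 11.9 and 12.3 in the C442G heterozygotes against 7.81 and 10.8. Each fold is relative to the background of its own list, and they were not tested against each other.

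Of the costimulatory ligands, Cd70 (the CD27 ligand) and Tnfsf9 (the 4-1BB ligand) were open in all 12 libraries, Tnfsf4 in 7 and Tnfsf18 in 3. The B cell survival ligands Tnfsf13 and Tnfsf13b (BAFF) were open in all 12, whereas their receptors Tnfrsf13c, Tnfrsf13b (TACI) and Tnfrsf17 were open in 6, 2 and 2. The tissue receptors Tnfrsf12a (the TWEAK receptor) and Tnfrsf19 (TROY) were open in all 12 and Tnfsf12 in 10. Ligand and receptor of some pairs thus differed, in both directions. The receptor was the more widely open at RANK, CD40 and Fas. The ligand was at BAFF, whose receptors Tnfrsf13c, Tnfrsf13b and Tnfrsf17 were each open in fewer libraries. Other pairs were alike: Cd27 and Cd70, and Ltbr and Ltb, were open in all 12, and Tnfsf10 and Tnfrsf10b in 11. Counted anywhere in the gene, a peak was present at Tnfrsf17 in 11 libraries and at Tnfrsf13b in 8.

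Downstream of the receptors, 20 of 23 listed adaptors, kinases and NF-kB genes were open in all 12 libraries, against 46.6% of all genes. Nfkb2, the non-canonical NF-kB subunit, was open in none within 1 kb of its ends. In Aire -/-, 2 of the 22 tested rose and 0 fell, a share near the 8.71% of all genes called higher. Traf6, the adaptor used by RANK and CD40, rose by 0.98 ± 0.23 (limma, adjusted p = 0.0367) and Rela, the canonical subunit, by 0.83 ± 0.21 (adjusted p = 0.0464). The median difference of the 22 tested genes was 0.32, below the 0.45 of all genes. Neither Traf6 nor Rela passed with libraries centred on their medians (0.56 and 0.42). Traf6 measured 757 and 1142 bp in Aire -/- against 337 and 528 bp, and Rela 825 and 1279 bp against 543 and 525 bp. Both calls were lost without Aire -/- library 2 (adjusted p = 0.175 and 0.204), without wild-type library 1 of that set (0.120 and 0.111) or without any library of the C442G set. That of Traf6 was also lost without either C313Y heterozygote library, and that of Rela without wild-type library 2 of the Aire -/- set (0.112) or either wild type of the C313Y set. In the C313Y set Traf1, a TRAF induced by NF-kB, was gained (193 and 125 bp against 0 and 0), as were 0.846% of all genes, and 0 of the 22 tested genes passed in either heterozygote set.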

How the data were processed

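ATAC-seq peak lists of 12 libraries were used. Cutadapt, Bowtie2, Picard, MACS2 and the build mm10 are named in the submitters' processing notes, without versions. Each library had its own list. The 8 lists of the Aire -/- and C442G sets were deposited with a score, a fold enrichment (ratio) and, for both p and q, a −log10 value, all of them the authors' own, with a lowest −log10 q of 1.00. The 4 lists of the C313Y set hold positions only. Fold and rank (by −log10 p, or by width where none was deposited) were used within a list only.

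Peaks on chromosomes 1 to 19 and X were intersected (1 bp) with windows of 1000 bp on either side of both ends of RefSeq genes (GRCm38.p6), using Python 3.11.15, numpy 2.4.6 and pandas 2.3.3. The bp covered, plus 100, were log2-transformed for genes with a peak in at least 6 of 12 libraries and fitted with limma 3.58.1 (R 4.3.3; 6 group means, trend, robust; 6 residual degrees of freedom), adjusted by Benjamini-Hochberg at 0.05. Which wild types belong to which mutant was read from the form of the titles, an assumption. The code was tested on simulated data, in which 200 of 13370 genes were changed by 2 on the log2 scale in the Aire -/- comparison. Raised and lowered genes were equal in number. Of the 200, 65.5% were recovered in the right direction, and 3.68% of the calls were false. Counts of gained and lost genes had no test within a set.

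The receptors Tnfrsf11a, Cd40 and Ltbr were always named, and other members where gained, lost, past the length test, or open in all or no libraries. Members that fall outside this are said to have been singled out, or stand by the number of libraries in which they were open. Tnfrsf4 was an exception, singled out after its values were seen, for the smallest p of the members in the C313Y set. Tnfsf14 was another, given with its lengths as a ligand of Ltbr. The members and lists were chosen with earlier results of these data known. Alternatives varied the peak threshold, list length, window, gene end, controls, pseudocount, filter, centring, samples fitted, replicates and pairing. Counting whole gene bodies was an alternative chosen after seeing the data. RefSeq promoters were matched by gene ID for 32 of 42 members. The 10 without an entry were Cd40, Tnfsf4, Tnfrsf26, Tnfrsf22, Tnfsf12, Tnfrsf10b, Tnfrsf11b, Tnfsf9, Cd70 and Cd40lg.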

Additional observations from a re-analysis of the deposited data

How the results depend on the processing

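Members gained in Aire -/- numbered 2 in lists of equal length and in 500 bp windows, 0 against all 6 wild types, and 5 to 9 with a library left out (9 without wild-type library 2 of that set), and lost members numbered 1 at equal length. Members gained in C313Y heterozygotes numbered 0 around starts of transcription alone and against all 6 wild types (1 to 2 with a library left out), and lost members 0 against all 6 wild types (1 to 3). Members gained in C442G heterozygotes numbered 0 at equal length and with gene bodies included, 1 in windows of 500 or 2500 bp, and 2 to 5 with a library left out. Members open in all 12 libraries numbered 11 with −log10 q of at least 3 and 12 around starts alone. Members open in none numbered 7 with −log10 q of at least 3, 6 at equal length, 5 in 500 bp windows, 1 with gene bodies, and 3 to 5 with a library left out (5 without C442G heterozygote library 1). Like counts could hold other genes: with −log10 q of at least 3 the C442G gains were Tnfrsf9 and Tnfsf12 in place of Tnfsf18 and Tnfrsf17, and those of Aire -/- held neither Lta nor Tnfrsf26. With gene bodies the Aire -/- gains did not hold Tnfrsf8, and the C313Y gain was Tnfrsf13b in place of Tnfsf4.

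The limma test called 1168 genes in Aire -/- under the settings reported, 585 with a peak in all 12 libraries, 103 with centring (99 higher, 4 lower), 1952 with −log10 q of at least 3, 419 at equal length (286 higher, 133 lower), 2431 in 2500 bp windows, 729 around starts, 0 from the 4 libraries of the set alone and 184 to 1261 with a library left out. The low values were 408 and 184 without Aire -/- library 1 and 2, and 752 and 759 without C442G heterozygote library 1 and 2. In the C313Y set it called 2 with a pseudocount of 20 bp, 1 in 500 bp windows and 0 to 6 with a library left out (6 without its wild-type library 2, 5 without either wild type of the Aire -/- set), and in the C442G set 23 with a peak in at least 1 library and 42 with −log10 q of at least 3. Cd40 in the C442G set was -0.12 with −log10 q of at least 3 and -0.01 in 500 bp windows (-0.20 to 0.38 with a library left out, including -0.09), and Ltbr there was -0.20 to 0.14, including 0.11. In the C313Y set Tnfrsf11a was -0.02 to 1.19 and Ltbr -0.20 to 0.75, and in Aire -/- Ltbr was 0.76 to 0.93, Tnfrsf11a 0.38 to 1.46 and Cd40 0.07 to 0.82 with a library left out (0.43, 0.51 and 0.03 with centring). Tnfrsf14 in Aire -/- was -1.68 at equal length. The cause of these changes was not tested.

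With the replicate number as a block, 0 genes passed in Aire -/-, where none of Tnf (adjusted p = 0.0734), Lta (0.101), Tnfsf13 (0.149), Tnfrsf14 (0.0946), Traf6 (0.0717) and Rela (0.0976) passed. In the C313Y set 2 members were then lost, from the only shared number. No pairing by number was seen: deviations of same-numbered libraries from their group means correlated at -0.03 to 0.00. With 2 libraries a group, this cannot show that same-numbered libraries were unrelated. Read depth was unknown, and 2 libraries a group limited every test.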
